A study of Mus musculus with 18 samples.

Results

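Chromosome 17 of the mouse holds 967 of the 20926 loops and 505 of the 13483 domains in 2 lists that were made from Micro-C data of mouse erythroblasts. All of its rows were taken, with no further selection. The chromosome was chosen from values of these same lists, for the weak agreement between its loop anchors and its domain ends. Shares of agreement are therefore given here as a description and were not tested, and the other 18 autosomes (19568 loops and 12066 domains) serve as the comparison.

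The 18 samples came from an LDB1-AID subline of G1E-ER4, a mouse erythroblast line. Of these, 9 were untreated and 9 had received auxin for 4 h, and all 18 carried the degron-tagged LDB1. Each list covers the whole series with no value for a sample or a treatment, so nothing here compares untreated with treated cells. G1E-ER4 cells lack their own GATA1 and carry a GATA1 fused to a hormone-responsive domain, and whether the lines were kept as clones is not given in the sources used here.

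Micro-C cuts chromatin with micrococcal nuclease and ligates DNA ends that lie near each other, which shows which stretches of a chromosome meet. A loop is a pair of such stretches, its anchors, with a contact stronger than its surroundings. A domain is a stretch whose parts meet each other more than they meet the outside. In mammals many loops form where cohesin, a ring-shaped complex that pulls DNA into loops, halts at CTCF bound on both sides, and such loops often join the ends of a domain. Other loops join enhancers and promoters, and LDB1 is a bridging protein known for such contacts in erythroid cells. Mouse chromosome 17 is known for the major histocompatibility complex and the t-complex. No gene, promoter or sequence is given here, because a genome and annotation of the files' build were not used.

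Loops on chromosome 17 ended away from domain ends more often than on any other autosome. An anchor is a 10 kb interval, a boundary is a position where at least 1 domain starts or ends, and an anchor was called near when its midpoint lay within 20 kb of a boundary. On chromosome 17, 323 of 1539 distinct anchors were near one of its 642 boundaries, or 21.0% (95% Wilson interval 19.03 to 23.1%). The share over the other 18 autosomes was 26.9%, with a mean of 26.9% ± 1.63 (SD over 18 chromosomes) and a range of 22.8 to 29.8%. The lowest of these, chromosome 4, had a value inside the upper part of the chromosome 17 interval. Wilson intervals here cover only the counting of anchors, loops or domains, which overlap and are not independent.

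Loops with both ends at boundaries were also fewer. Both ends were near a boundary for 44 of 967 loops on chromosome 17, or 4.55%, against 8.03% on the other autosomes, whose mean was 8.03% ± 0.922 and whose range was 6.56 to 10.05%. No end was near one for 582 loops, or 60.2%, against 51.4% on the others, which ranged from 47.8 to 58.4%. Chromosome 17 held the lowest value of the 19 autosomes in the first measure and the highest in the second. Both measures count the same near anchors, whose weak agreement was the reason for the choice, so these ranks are no separate support.

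The other measures did not all set the chromosome apart. Counted from the domains, 241 of 642 boundaries (37.5%, 95% Wilson interval 33.9 to 41.3%) had an anchor within 20 kb, against 42.2% on the other autosomes. Their range of 32.1 to 57.7% held the chromosome 17 value, and 5 of the 18 were lower. Both anchor midpoints lay inside a single domain for 835 loops (86.3%, interval 84.0 to 88.4%), against 86.4% on the others, 9 of which were lower. A corner loop joins the start of a domain to its end, with each anchor midpoint within 20 kb. Such a loop was found for 15 of 505 domains (2.97%, interval 1.81 to 4.84%), against 5.49%, and no other autosome had a share below 3.36%.

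**Figure D1:**
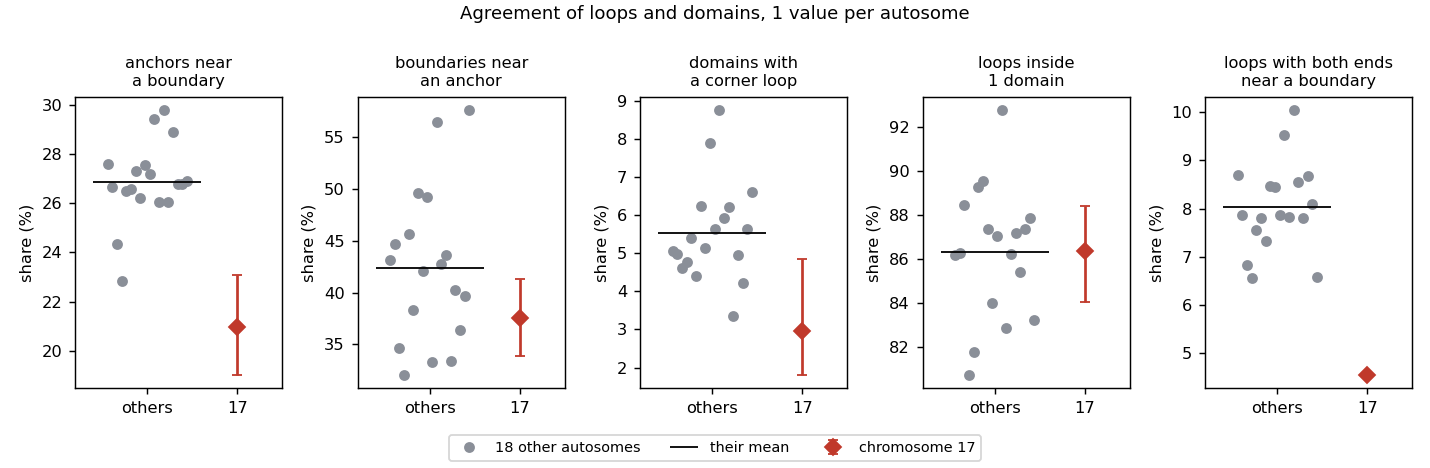
Each panel gives 1 share in percent, with a grey point for each of the 18 other autosomes, a black line at their mean and a red diamond for chromosome 17 with its 95% Wilson interval (none is drawn for loops with both ends near a boundary); the axes do not start at 0. Chromosome 17 lies below every other autosome for anchors near a boundary (21.0%), corner loops (2.97%) and loops with both ends near a boundary (4.55%), and among them for the remaining pair of shares.

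The distances around the limit of 20 kb rose and fell from step to step. In steps of 5 kb from 10 to 30 kb from the nearest boundary, chromosome 17 had 60, 72, 62 and 74 anchors. These were 3.90, 4.68, 4.03 and 4.81% of its anchors, compared with 4.33, 5.92, 3.95 and 5.37% on the other autosomes. In both cases the share dropped just past the limit. The median distance from an anchor to the nearest boundary was 60 kb, compared with 49.2 kb ± 2.27 on the others, where it ran from 45 to 54 kb. An anchor more than 100 kb from every boundary was found in 420 cases, or 27.3%, compared with 22.8% of the anchors of the other autosomes.

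Widening the limit brought the ratio to the other autosomes closer to 1, while the difference in points was widest at 40 kb (37.2% against a mean of 44.6%). At 10 kb the share of near anchors was 12.4% on chromosome 17, or 0.746 times the mean of 16.6% on the others. At 60 kb it was 50.2%, or 0.876 times their mean of 57.4%, and at 100 kb it was 72.7%, or 0.944 times their mean of 77.1%. At each of the 7 limits tried from 10 to 100 kb, chromosome 17 was the lowest of the 19 autosomes. Corner loops behaved differently. At 10 kb only 2 of 505 domains had one (0.396%), below all 18 others, the lowest of which was at 0.587%. From 30 to 80 kb 1 other autosome was lower, and at 100 kb the share of 28.7% lay above 6.

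**Figure D2:**
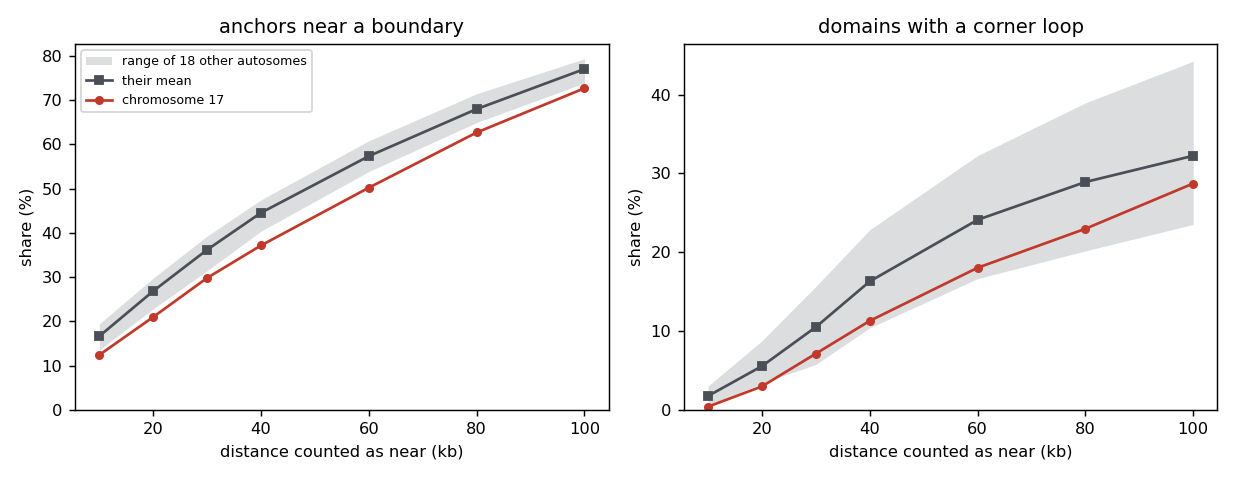
The share of anchors near a boundary (left) and of domains with a corner loop (right), in percent, is plotted against the distance counted as near in kb; red is chromosome 17, grey squares are the mean and the band is the range of the 18 other autosomes. The red line runs below the band at every distance on the left, from 12.4% at 10 kb to 72.7% at 100 kb, and enters the band on the right.

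The anchors of a loop are not placed evenly around a boundary. On the other autosomes left anchors, the lower-coordinate ends of loops, gathered just past a boundary, at higher coordinates, and right anchors just before one. Chromosome 17 had its main peaks on the same sides, at a lower height. Counted in steps of 10 kb, its left anchors were most frequent 40 kb past a boundary, where 14.1 anchor-boundary pairs were counted per 100 left anchors, against 16.5 on the others. Its right anchors peaked at -20 kb, where 15.1 pairs per 100 right anchors were counted, against 17.5.

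The widest departure lay just past a boundary. At +10 kb there were 4.78 pairs per 100 right anchors (38 pairs of 795 anchors), against 11.9 on the other autosomes, whose range of 9.37 to 15.9 did not include it. At +20 kb left anchors had 9.88 pairs per 100, against 14.8, and all 18 others were higher. At some distances before a boundary the order turned. At -80 kb left anchors had 9.13 pairs per 100 against 5.66, and right anchors 9.94 against 7.62, and both values were above those of all 18 other autosomes. Left anchors at -100 kb (4.88 against 6.48) and right anchors at +50 kb (2.39 against 3.58) were again lower on chromosome 17. These steps were picked out of 21 on each side after their values were seen.

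**Figure D3:**
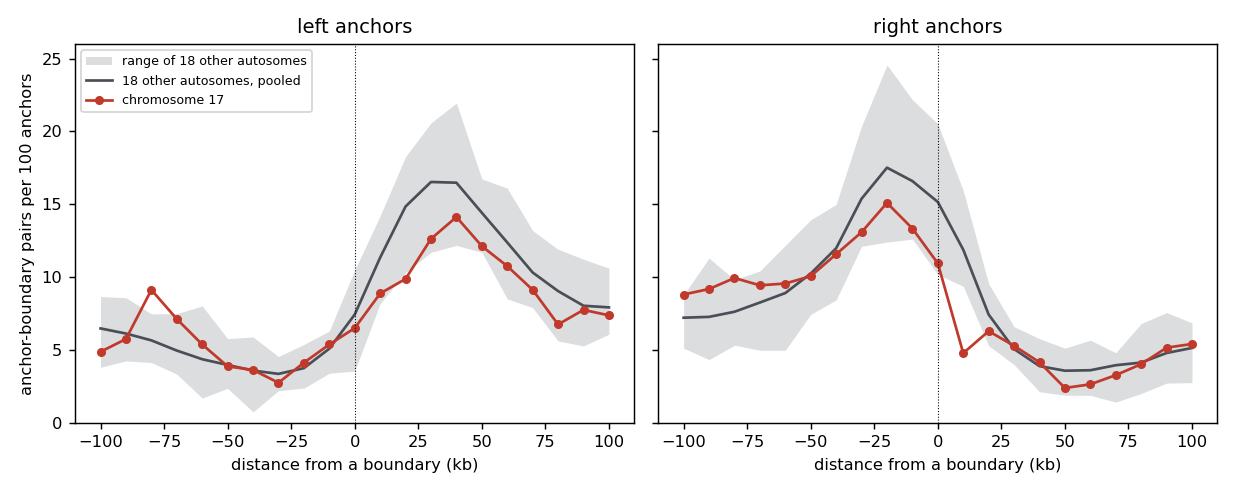
Pairs of an anchor and a boundary per 100 anchors are plotted against the signed distance in kb from the boundary (positive at higher coordinates), for left and right anchors; red is chromosome 17, the dark line the 18 other autosomes pooled and the band their range. The main peaks lie on the same sides of a boundary, with chromosome 17 at 4.78 against 11.9 for right anchors at +10 kb and above the band at -80 kb.

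Most kinds of anchor shared the shortfall. The classes given here and by grid and span below divide the same anchors for which the chromosome was chosen. Their ranks are therefore no independent support. As left ends of loops, 125 of 800 anchors were near a boundary (15.6%, against 21%), and as right ends 206 of 795 (25.9%, against 32.8%). Of left-only anchors 15.7% were near a boundary, against 20.5% on the other autosomes, and of right-only anchors 26.8%, against 33.2%. Of the 56 anchors that were the left end of one loop and the right end of another, 8 were near one (14.3%, 95% Wilson interval 7.42 to 25.7%), against 27.4%. In these 3 classes chromosome 17 was below all 18 others. The same held for anchors used by 1 loop (19.9% against 25.3%), while for those used by 2 loops (25.3%, against 31.7%) and those used by 3 or more loops (19 of 73, or 26.03%, against 35.9%) 1 other autosome was lower.

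The anchor coordinates fall on grids of 2, 5 and 10 kb, and the shortfall was present on each. Near shares were 16.7% for anchors whose finest loop was on the 2 kb grid, 20.6% for the 5 kb grid and 25.9% for the 10 kb grid. The other autosomes had 21.1%, 26.3% and 31.8%, and none was below chromosome 17. By the longest loop of an anchor, the gap was widest for loops of 100 to 300 kb, with 18.4% on chromosome 17 against 25.7%, and for loops of 300 kb to 1 Mb the shares were 31.4% and 36.3%. It was narrower under 100 kb, at 15.3% against 17.4%, where 3 others were lower. Anchors of loops over 1 Mb did not share it: 19 of 52 were near a boundary (36.5%, interval 24.8 to 50.1%), against 33.7%, and 12 other autosomes were lower.

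The share of near anchors changed along the chromosome and was lowest in the first 20 Mb. In fixed windows of 10 Mb from position 0, the share of near anchors was 11.25% (9 of 80 anchors) in the window from 0 to 10 Mb, 13.9% (23 of 166) from 10 to 20 Mb and 19.6% (75 of 382) from 20 to 30 Mb. Shares of 22.2%, 22.6%, 21.9% and 18.4% followed in the windows up to 70 Mb. The window from 60 to 70 Mb was also low from the side of its boundaries, 5 of 67 of which had a near anchor (7.46%). The windows from 70 to 80 and from 80 to 90 Mb had 33.7% (31 of 92) and 25.1% (42 of 167). Over 226 windows of the other autosomes with at least 30 anchors, the median was 27.1% and the quartiles were 23.1 and 31.4%. Only 3 of these 226 windows were below the first window of chromosome 17 and 7 below its second, while 196 were below the window from 70 to 80 Mb.

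Taken as one stretch, the first 30 Mb had 107 near anchors of 628, or 17.04% (95% Wilson interval 14.3 to 20.2%), and the same stretch of the other autosomes had 27.4% ± 3.85, from 23.3 to 38.2%. From 30 Mb to the end the share was 23.7% (216 of 911), against 26.8% ± 2.01 on the others, 1 of which was lower. From 70 Mb on it was 28.2% (73 of 259), against 26.2% ± 2.82 on the 17 others that have anchors there, 12 of which were lower. These limits were set after the windows had been seen. The first 30 Mb held 380 loops, whose spans had a median of 138 kb, and 147 domains, whose sizes had a median of 405 kb. Counted from the boundaries of such stretches the order was the opposite. A near anchor was found for 45.2% of those in the first 30 Mb, compared with 36.0% from 30 to 70 Mb and 31.0% from 70 Mb on. This order rests on the pooling. In windows of 10 Mb the boundary share was 23.1% from 0 Mb, 38.8% from 10 Mb and 65% from 20 Mb. The stretch from 70 Mb on includes 48 boundaries past 90 Mb, where no anchor was listed.

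In 1 Mb bins from position 0, the lists covered 93 bins of chromosome 17. Of these, 60 had at least 1 anchor near a boundary, 14 had anchors with none near, and 19 had boundaries but no anchor. The shares of 64.5%, 15.1% and 20.4% were close to the 65.9%, 14.3% and 19.8% of 2343 bins on the other autosomes. There the 19.8% counts all bins without an anchor, and 33 of the 2343 bins had no boundary. The 14 bins with no agreement held from 1 to 8 anchors each. The 19 bins without an anchor held 141 boundaries. They included runs of 5 bins from 58 to 63 Mb, with 38 domains, and of 5 bins from 90 to 95 Mb, with 37 domains, in which domains were listed without loops.

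Bins were also compared by the number of anchors they held. Among the 47 bins of chromosome 17 with at least 10 anchors none lacked a near anchor, and on the other autosomes 41 of 1127 did. The median share in the 47 bins was 21.4%, below each of the other autosomes (21.7 to 28.9%). In bins with 40 or more anchors, 122 of 630 anchors were near a boundary (19.4%, 95% Wilson interval 16.5 to 22.6%), against 25.8% on the other autosomes. Those bins held 40.9% of the anchors of chromosome 17 and 19.9% of those of the others. Bins with 10 to 19 anchors went the other way, at 28.2% (44 of 156) against 26.5%, and bins with 1 to 9 anchors were at 17.3% (19 of 110) against 27.6%. Those with 20 to 29 anchors were at 22.6%, against 28.4%, and those with 30 to 39 at 19.9%, against 26%. The bins of 40 or more anchors held a mean of 7.69 boundaries on chromosome 17 and 8.66 on the others.

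The 5 bins with the lowest shares, among 41 with at least 10 anchors and 5 boundaries, were those starting at 5, 8, 18, 24 and 46 Mb. The bin from 5 to 6 Mb had 1 near anchor of 23 and the bin from 18 to 19 Mb had 2 of 36, while 2 of 5 and 4 of 7 boundaries in these bins had a near anchor. The bins from 8 to 9 and from 24 to 25 Mb had 2 near anchors of 18 and 4 of 47. The bin from 46 to 47 Mb had 5 near anchors of 49, yet 6 of its 7 boundaries had an anchor within 20 kb. The 5 bins with the highest shares started at 31, 53, 71, 78 and 85 Mb and had from 36.0 to 42.1% of their anchors near a boundary. They held 12 to 25 anchors each, and the 5 lowest held 18 to 49. The bin with the most anchors, from 36 to 37 Mb, had 79 anchors, of which 13 were near a boundary. It held 6 boundaries, and the median over the bins of chromosome 17 was 7.

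**Figure D4:**
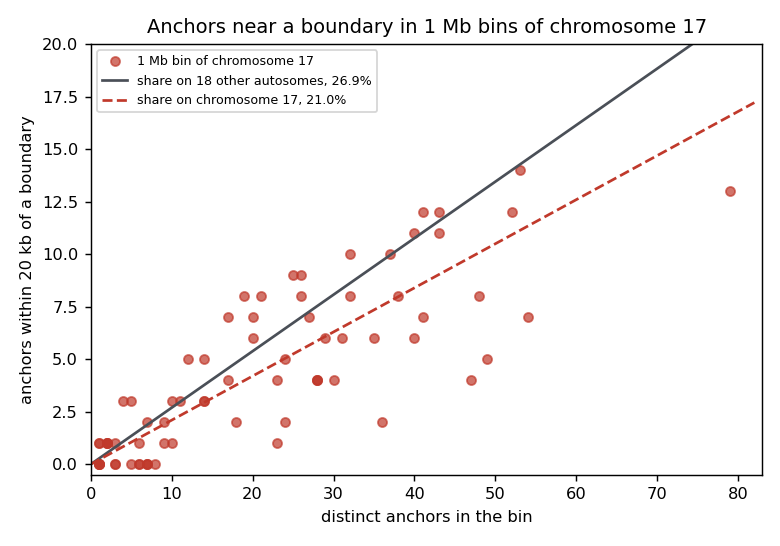
Each point is a 1 Mb bin of chromosome 17, with its distinct anchors on the horizontal axis and those within 20 kb of a boundary on the vertical axis; the solid line marks the 26.9% of the other autosomes and the dashed line the 21.0% of chromosome 17. The bin with 79 anchors, 13 of them near a boundary, lies below both lines.

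Boundaries of chromosome 17 had a near anchor less often in most classes, but not in all. Boundaries that were a start or an end of a single domain had one in 39.9% of 353 cases, against 47% on the other autosomes, and those used by 2 domains in 27.8% of 227, against 34.6%. In both classes 4 others were lower. Boundaries used by 3 or more domains, at which several nested domains begin or end, ran opposite: 37 of 62 had a near anchor (59.7%, 95% Wilson interval 47.3 to 71.0%), against 43.1%, and 16 other autosomes were lower. Such boundaries were 9.66% of all boundaries on chromosome 17, above 17 of the 18 others. Boundaries that were both the end of a domain and the start of the next had a near anchor in 33.3% of 249 cases, against 34.8%. Boundaries that were only a start had one in 39.9% of 198 cases, against 47.9%, and those that were only an end in 40.5% of 195, against 46.6%.

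Some boundaries lay off the 5 kb grid on which the rest lie. There were 79 of these on chromosome 17 (12.3%), compared with 12.9% ± 2.24 on the other autosomes. Of the 79, 43 had a near anchor (54.4%, against 61.3%), and of the 563 on the grid 198 had one (35.2%, against 39.4%).

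The 15 corner loops were spread along the chromosome. In the first 30 Mb, 5 of 147 domains had one, from 30 to 70 Mb 4 of 221, and from 70 Mb on 6 of 137. Shares of 3.40, 1.81 and 4.38% had overlapping 95% Wilson intervals (1.46 to 7.71%, 0.706 to 4.56% and 2.02 to 9.23%). Among the domains so closed, 14 of 15 (93.3%) were innermost, with no smaller one inside, compared with 81.1% of domains with a corner loop on the other autosomes and 60.2% of all domains of chromosome 17. Their sizes ran from 125 to 1085 kb with a median of 310 kb, compared with 290 kb for domains with a corner loop on the other autosomes. By size, 6 of 115 domains under 250 kb had a corner loop (5.22%, against 9.08%), 7 of 165 from 250 to 500 kb (4.24%, against 6.48%), 1 of 153 from 500 kb to 1 Mb (0.654%, against 3.12%) and 1 of 72 of 1 Mb or more (1.39%, against 2.05%). For domains from 500 kb to 1 Mb no other autosome had a lower share, but the lowest of them was close, at 0.662%. The chromosome 17 share there rests on 1 domain, and its interval of 0.115 to 3.61% holds the 3.12% of the others. Of domains inside no other, 5 of 193 had a corner loop (2.59%, against 4.32%), and of domains inside another 10 of 312 (3.21%, against 6.23%), where again no other autosome was lower.

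The largest of these domains, chr17:72030001-73115000, was joined end to end by a loop of 1120 kb. A single start, at 84255001, carried a pair of corner loops, one of 325 kb to the end of a domain at 84600000 and one of 600 kb to the end of the enclosing domain at 84860000. Their left anchors did not overlap, and that of the longer loop lay 20 kb from the start, at the limit for a corner loop. The domain chr17:26795001-27035000, next to chr17:26585001-26790000, also had a corner loop, so that neighbouring domains 5 kb apart were both closed by one, with spans of 225 and 172 kb. Short examples were chr17:46900001-47025000, the smallest at 125 kb, and chr17:85090001-85230000, with a loop of 130 kb. Others closed chr17:12845001-13020000, chr17:27325001-27635000, chr17:29388334-29668333, chr17:30595001-31045000, chr17:31815001-32165000, chr17:45855001-46301666, chr17:78835001-79002500 and chr17:80615001-80985000.

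The median domain of chromosome 17 was 430 kb long (95% interval 390 to 480 kb; quartiles 260 and 720 kb), near the 413 kb ± 20.2 of the other autosomes. Its middle sizes were fewer. Domains of 250 to 500 kb made up 32.7% of its list (165 of 505), against 38.8% on the others, which ranged from 35.7 to 41.9%. Domains under 250 kb (22.8%, against 20.3%) and from 500 kb to 1 Mb (30.3%, against 27.6%) took a larger share, each above at least 16 of the 18 others. The largest domain, chr17:38635001-40625000, was 1990 kb long and held 8 smaller domains and 16 loops. The 3 smallest, at 100 kb, started at 40555001, 60695001 and 61245001 and held no loop.

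Domains nested to the fifth level made up a larger share than elsewhere, although 7 other autosomes had a domain inside 6 others. Nesting as a whole was ordinary. A domain lay inside a mean of 1.07 others, compared with 0.993 ± 0.0989 on the other autosomes, 13 of which were lower. Domains inside no other made up 38.2% (193 of 505), against 39% on the other autosomes, and domains that held no other made up 60.2%, with a median of 282 kb. At the deep end, 8 domains (1.58%) lay inside 5 others, the deepest level on chromosome 17, where the other autosomes had 0 to 1.19% of their domains inside 5 or more and 5 of them had none. By count, the highest of the other autosomes had 9 such domains. Domains inside 4 others made up 1.58% on chromosome 17, against 1.67%. Of the 8 deepest domains on chromosome 17, 7 held no loop, and chr17:33135001-33645000 held 3. The most subdivided domains, chr17:8635001-10575000 and chr17:89055001-90985000, each held 10 smaller ones and had only 3 loops and 1 loop inside them. By contrast the domain with the most loops, chr17:28305001-29675000, held 53 loops in 1370 kb and 8 smaller domains. On chromosome 17, 229 domains (45.3%) held no loop, against 48.6%, and 4 other autosomes had a lower share.

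Loops on chromosome 17 were dense and short. There were 10.5 loops per Mb over 91.9 Mb, above 16 of the 18 others (8.52 ± 1.89), and 5.50 domains per Mb, also above 16 (5.21 ± 0.268). The median loop spanned 145 kb (95% interval 136 to 160 kb), equal to the lowest of the other autosomes, whose mean was 179 kb ± 19.2. Of the loops, 239 were on the 2 kb grid (24.7%, against 20.5%), 463 on the 5 kb grid (47.9%, against 47%) and 265 on the 10 kb grid (27.4%, against 32.4%, and below all 18 others). Medians of 165 and 240 kb on the coarser grids were equal to the lowest of the others, and the median of 74 kb on the finest was above that of 4. Loops under 100 kb made up 31.5% (305 loops), against 26.4%, and loops over 1 Mb 2.90% (28 loops), against 4.08%. The shortest spans were 18 kb, in loops whose left anchors started at 21648001, 24012001 and 29040001.

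Fewer loops passed over a boundary than elsewhere. A boundary lay between the anchor midpoints of 381 loops (39.4%), against 45.1% on the other autosomes, all of which were higher (40.05 to 51.8%). When only the domains that hold no other were used, 657 loops (67.9%, 95% Wilson interval 64.9 to 70.8%) lay inside 1 of them, against 60%, and all 18 others were lower (53.9 to 64.5%). Shares were also taken by span. For loops of 100 to 300 kb, 76.9% lay inside such a domain, against 72.5%, again above all 18 others. Under 100 kb the shares were 92.8% and 89%, with 16 others lower. For domains of any kind, 98.7% of loops under 100 kb lay inside 1, against 96.8%, and 94.3% of those of 100 to 300 kb, against 94.5%. Within these spans, loops that passed over a boundary did not set the chromosome apart. Boundaries lay between the ends of 11.8% of loops under 100 kb, against 14.4%, with 5 others lower. For loops of 100 to 300 kb the shares were 32.0% and 34.3%, with 4 others lower.

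Longer loops lay inside a single domain of any kind less often than elsewhere. Of the 196 loops from 300 kb to 1 Mb, 61.2% (95% Wilson interval 54.3 to 67.8%) lay inside a single domain of any kind, against 72.3%, with 3 others lower, while 18.9% lay inside a domain that holds no other, against 17.7%. Of the same loops 90.3% (interval 85.4 to 93.7%) passed over a boundary, against 87.4%, with all 18 others lower and the highest of them at 89.7%. Of the 28 loops over 1 Mb, 1 lay inside a domain (3.57%, interval 0.633 to 17.7%), against 19.3%. The 3 longest spanned 1920, 1980 and 1990 kb and passed over 11, 17 and 11 boundaries. Their left anchors started at 77270001, 8450001 and 63890001, and only 1 of their 6 anchors, the right end of the longest loop, was near a boundary.

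Many loops shared anchors. Anchors that overlapped by at least 1 bp were merged into 920 regions, and 878 loops (90.8%, against 91.3% on the others) used a region that another loop also used. Regions with 5 or more loops, called hubs here, numbered 89, or 9.67% against 7.81%, and only 1 other autosome had a larger share. Hubs were also away from domain ends more often: 31 of 89 (34.8%) had a boundary within 20 kb of an edge, against 46.1%, and the other autosomes ranged from 37.2 to 53.0%. Regions with a single loop had one in 21.7% of 475 cases, compared with 24.9% ± 2.01 on the other autosomes, 1 of which was lower. By side, 34 of the 89 hubs sent all their loops one way, and 31 had at least 2 loops in each direction. The matching shares on the other autosomes are not given here, so these counts describe chromosome 17 alone.

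The hub with the most loops on the chromosome, which starts at chr17:45850001 and is 27.5 kb wide, sat on a domain border. It merged 5 anchors and had 15 loops, equal to the largest number on any other autosome. The count rests on the merging: the most used of the 5 anchors had 8 loops by itself. The 15 loops reached 12 partner regions, because some of them overlap another loop at both anchors. Within its width lay 3 boundaries: a start at 45855000 and ends at 45857500 and 45865000. Domains chr17:45185001-45865000 and chr17:45535001-45857500 ended there, and chr17:45855001-46301666 began there. No domain held the whole hub.

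Loops to higher and to lower coordinates used different anchors of the hub. The 4 loops to lower coordinates used anchors starting at 45850001 or 45852501, in the lower part of the hub, and spanned 54 to 240 kb to 3 partner regions. All 4 lay inside the domains that end there, and 3 of them passed over the start at 45855000, since the midpoint of their hub anchor lies past it. The 11 loops to higher coordinates used anchors starting at 45860001, 45862501 or 45867501 and reached 9 partner regions with spans of 110 to 990 kb. Of the 11, 6 ended inside the domain that begins at the hub. A seventh, of 435 kb, ended at chr17:46297501-46307500, within 1 kb of the end of that domain by its midpoint (0.834 kb), and was its corner loop. The other 4, of 520, 570, 820 and 990 kb, went past that end.

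Partners of the hub were linked among themselves to a limited extent. Of its 12 partner regions, 10 had a further loop, and 6 of the 66 possible pairs of partners were joined directly. The partner with most loops, chr17:46162501-46182000, had 7 loops and lay 304 kb from the centre of the hub. Only 1 of the 12 had a boundary within 20 kb, the one at the corner. By coordinate grid, 13 of its loops were at 5 kb, 1 at 2 kb and 1 at 10 kb.

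**Figure D5:**
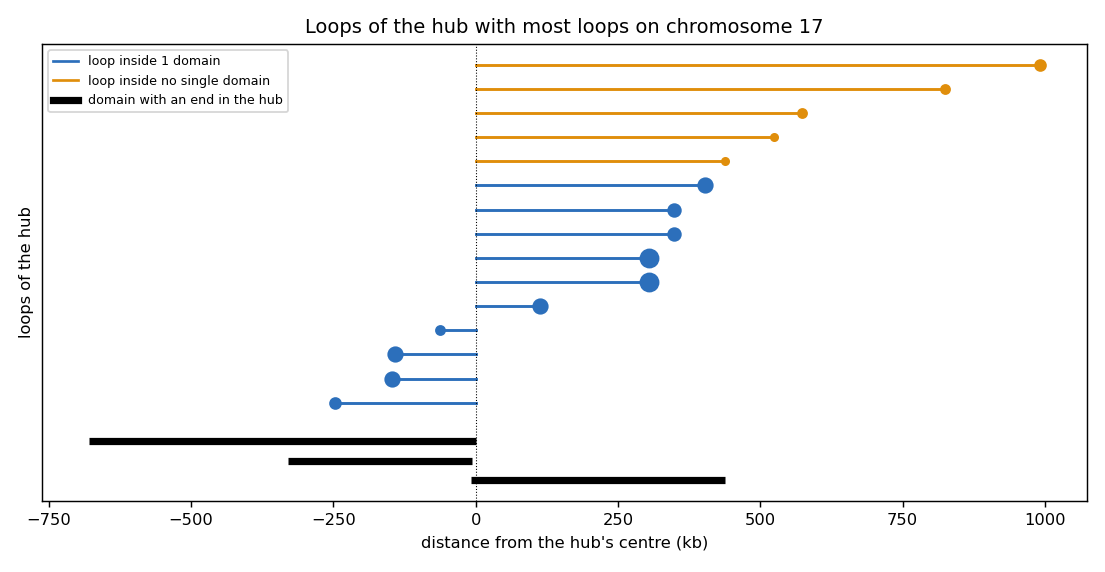
Each line is 1 of the 15 loops of the hub, drawn from its centre to the far anchor in kb (negative at lower coordinates), with a larger point for a partner region with more loops; blue loops lie inside a domain, orange ones inside none, and black bars are the domains with an end in the hub. The 4 loops to lower coordinates stay inside the domains that end at the hub, and 5 of the 11 to higher coordinates reach the end of the domain that begins there or go past it.

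The 6 next hubs had 8 to 11 loops. The one with 11, chr17:22212501-22244000, had its centre 58.25 kb from the nearest boundary and sent 8 loops to higher and 3 to lower coordinates. Hubs with 9 loops lay at chr17:36050001-36080000, with 7 loops to higher coordinates and 2 to lower, and at chr17:84290001-84312500, with all 9 to higher coordinates. The 3 with 8 loops, chr17:28650001-28670000, chr17:29646001-29660000 and chr17:36264001-36287500, sent 8, 8 and 7 of them to lower coordinates. Of these 6 hubs, 2 had a boundary within 20 kb of an edge, and none had one inside its width.

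Regions joined by loops, directly or through others, formed 170 networks. Those with at least 10 regions numbered 23 and contained 623 loops, or 64.4% of the loops of the chromosome. The largest, chr17:33822501-37620000, linked 51 regions by 75 loops over 3.8 Mb, had 28 boundaries within its extent and lay in no single domain. Its extent covers the bin with 79 anchors, 11 of its regions were hubs, and 17 of its 51 regions had a boundary within 20 kb of an edge, as did 234 of all 920 regions (25.4%). The network of the hub with 15 loops was the fourth, with 32 regions and 44 loops over 1.54 Mb, and 4 of its 32 regions had a boundary within 20 kb. Of the other autosomes 5 had a larger network than 51 regions, and their largest ran from 27 to 75 regions.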

How the data were processed

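The authors deposited 2 lists of genome coordinates in bp for the whole series, with no header, score or value per sample, so read depth is unknown here. The build is mm9, per the submitters' processing notes. Aligner, callers, resolutions and the samples used are not given in the sources used here. The number of columns with unassigned per-sample values was 0.

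Starts were read as counted from 0 and are printed counted from 1, except boundaries, which are printed as listed. The loop span is the distance between anchor midpoints. Each measure was computed in the same way on every autosome with Python 3.11.15, numpy 2.4.6, pandas 2.3.3, scipy 1.17.1 and networkx 3.6.1, with figures in matplotlib 3.10.9. Functions were checked on lists with planted answers. Percentages after "against" pool the other 18 autosomes, and means ± SD take 1 value per chromosome. Medians have 95% intervals from order statistics. The lists hold no values per replicate, and no test was made. Members, measures and the naming rule were chosen with earlier results of these data known. The rule named the 5 lowest and 5 highest 1 Mb bins with at least 10 anchors and 5 boundaries, the bin with most anchors, the top hubs, the largest network, extreme domains and loops, and all corner loops.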

Additional observations from a re-analysis of the deposited data

How the results depend on the processing

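Of 39 alternatives, 10 were added after the data were examined, and 27 moved a value outside its 95% interval or, for counts, by over 1.5 times. The share of anchors near a boundary on chromosome 17 was 12.4, 29.8, 37.2, 50.2, 62.7 and 72.7% at 10, 30, 40, 60, 80 and 100 kb. It was 25.02% from the nearest edge of the anchor, 13.2% with outermost domains only, 25.6% with loops of the 10 kb grid only and 23.7% without the first 30 Mb. It was the lowest of the 19 autosomes in 13 of 14 alternatives, the exception being without the first 30 Mb, where 1 other was lower. The chromosome was chosen for weak agreement and the alternatives reuse the same lists, so this rank is no independent support. The share of boundaries near an anchor was 24.9, 45.8, 51.2, 58.4, 62.3 and 64.0% at the same distances. Corner loops were found for 0.396, 7.13, 11.3, 18.02, 23.0 and 28.7% of domains, a share that was the lowest in 2 of 8 alternatives (10 kb, and innermost domains only). Loops inside 1 domain fell to 67.9% with innermost domains only, where chromosome 17 was the highest of the 19.

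Bins without agreement numbered 14, or 15 when shifted by 500 kb and 6 of 42 at 2 Mb. The hub at 45850001 had 15 loops, 16 when anchors within 10 kb were merged, and 8 on its most used single anchor. Of the 967 loops of chromosome 17, 921 remained when loops that overlap at both anchors were counted once. The median domain size was 282 kb for innermost and 630 kb for outermost domains. No paired analysis was possible because neither list has values by sample. A contact below the limits of the calls is missing from the lists, so an absent loop is not an absent contact.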
